A study of Mus musculus with 8 samples.

Results

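Threonine dehydrogenase (Tdh), the enzymes that turn its product and serine into glycine, and the enzymes that carry 1-carbon units into the folate and methionine cycles were examined in R1 mouse embryonic stem cells kept in butyrate or in leukaemia inhibitory factor (LIF). The members were all non-control probes that the array design names for 10 genes: Tdh, Gcat, Gldc, Amt, Shmt1, Shmt2, Mthfd1, Mthfd2, Mat2a and Ahcy. This gave 13 probes of 9 genes among 41174 probes on the array, whose design uses 27962 gene names. No probe carried the name Amt, the aminomethyltransferase of the glycine cleavage system, so Amt was not analysed here. R1 is an established line of pluripotent cells from the early mouse embryo. Gelatin-coated dishes and serum replacement were common to all 8 samples. Of these, 4 received LIF, a cytokine used to keep such cells from differentiating, and had no feeder cells. The other 4 were passaged 15 times without LIF in sodium butyrate at 0.2 mM. The labels do not give the number of passages of the LIF samples. The absence of LIF, the presence of butyrate and any difference in passages therefore cannot be told apart. Butyrate is a small fatty acid that inhibits histone deacetylases. Per the labels each group was grown in quadruplicate, as independent samples, and all come from this 1 line.

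In the mitochondria of mouse cells, threonine dehydrogenase oxidises threonine, and glycine C-acetyltransferase splits the product into glycine and acetyl-CoA. Glycine can also be made from serine, and both serine and glycine can hand a 1-carbon unit to tetrahydrofolate for the synthesis of nucleotides and of methionine. Methionine becomes S-adenosylmethionine, the methyl donor for DNA and histone methylation, and S-adenosylhomocysteine is left after each methyl transfer. Mouse embryonic stem cells are known for a high level of threonine dehydrogenase and for a need for threonine in their medium.

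The sequences just before the transcription starts are given for 3 members toward either end of the range described next. Gcat and Shmt2 had the lowest log2 ratios of butyrate over LIF among the members with an entry in the promoter table used, and Mat2a had the highest. Tdh, the member with the lowest ratio, had no entry there and is not shown. Each line gives the 250 bases before the start in the gene's own direction, from RefSeq on the mouse build GRCm38.p6. Capitals mark matches, on either strand, to the motifs searched.
Gcat, chr15:79030624-79030873, plus strand: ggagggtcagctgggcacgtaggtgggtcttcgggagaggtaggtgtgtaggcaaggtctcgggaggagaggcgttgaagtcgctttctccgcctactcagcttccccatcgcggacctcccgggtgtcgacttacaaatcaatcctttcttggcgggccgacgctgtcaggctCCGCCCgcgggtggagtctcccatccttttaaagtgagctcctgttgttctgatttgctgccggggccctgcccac
Shmt2, chr10:127522445-127522694, minus strand: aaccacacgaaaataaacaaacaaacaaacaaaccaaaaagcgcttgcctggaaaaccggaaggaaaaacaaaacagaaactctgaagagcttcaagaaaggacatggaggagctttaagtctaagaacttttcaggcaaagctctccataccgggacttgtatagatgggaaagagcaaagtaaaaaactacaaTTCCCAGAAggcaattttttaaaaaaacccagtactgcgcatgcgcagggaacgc
Mat2a, chr6:72439557-72439806, minus strand: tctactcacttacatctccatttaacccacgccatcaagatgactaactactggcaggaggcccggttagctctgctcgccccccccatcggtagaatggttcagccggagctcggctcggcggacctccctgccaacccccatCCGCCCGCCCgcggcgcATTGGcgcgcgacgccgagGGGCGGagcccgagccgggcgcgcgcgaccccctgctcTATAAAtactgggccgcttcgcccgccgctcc
In Gcat the capitals are a GC box read on the other strand, at 71 bases before the start. In Shmt2 they are a STAT site, TTCNNNGAA, where N is any base, at 47 bases before the start. In Mat2a they are GC boxes, with an overlapping pair, a CCAAT box read on the other strand and a TATA box. The motifs searched were the GC box, spelled GGGCGG, the CCAAT box by its own letters, and the TATA box, spelled TATAAA. The E-box, spelled CACGTG, was searched too, as were the cyclic AMP response element (CRE), spelled TGACGTCA, and the octamer of POU factors, spelled ATGCAAAT. Over the same window of 32851 promoters in the table, on both strands, 32.7% held the GC box, 33.8% the CCAAT box, 12.4% the TATA box and 7.02% the STAT site. The E-box was in 6.02% of them, the octamer in 1.60% and the CRE in 1.55%. A match describes letters only, and no binding was measured.

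RNA was measured on 4 Agilent whole mouse genome arrays with 2 colours. Each array carried 1 butyrate sample in Cy5 and, in Cy3, the LIF sample that shares its replicate number. No array had the dyes exchanged, so a difference between the dyes and one between the treatments cannot be told apart. The measure is the log2 ratio of butyrate over LIF on an array, where 0 is no difference and −1 is 2-fold lower in butyrate. A log2 signal is the normalised brightness of 1 colour and is compared only within a probe, since brightness differs between probes for reasons other than RNA amount. Median raw signals were 62.8 to 66.0 for LIF and 110 to 111 for butyrate. Of the 25661 probes tested, 72.2% passed limma's test on the 4 ratios against 0 at a Benjamini-Hochberg adjusted p under 0.05, with 39.7% higher and 32.5% lower in butyrate. A difference in a bulk sample may reflect fewer cells of a type or less RNA per cell, and these cannot be told apart.

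All 13 member probes were well above background in both colours on the 4 arrays, and 10 of them passed the test, a share close to the 72.2% of all tested probes. Lower in butyrate were 7 member probes, of Tdh, Gcat, Shmt1, Shmt2 and Mthfd1. Higher were 3, of Mat2a and Ahcy. Gldc, Mthfd2 and 1 probe of Ahcy did not pass. The median log2 ratio of the member probes was −0.23, against 0.03 for all tested probes. In 10 of the 13 the 4 butyrate signals did not overlap the 4 LIF signals, which held for 65.3% of all tested probes. Tdh and Gcat were at least 2-fold lower, which held for 1.61% of all tested probes.

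**Figure D1:**
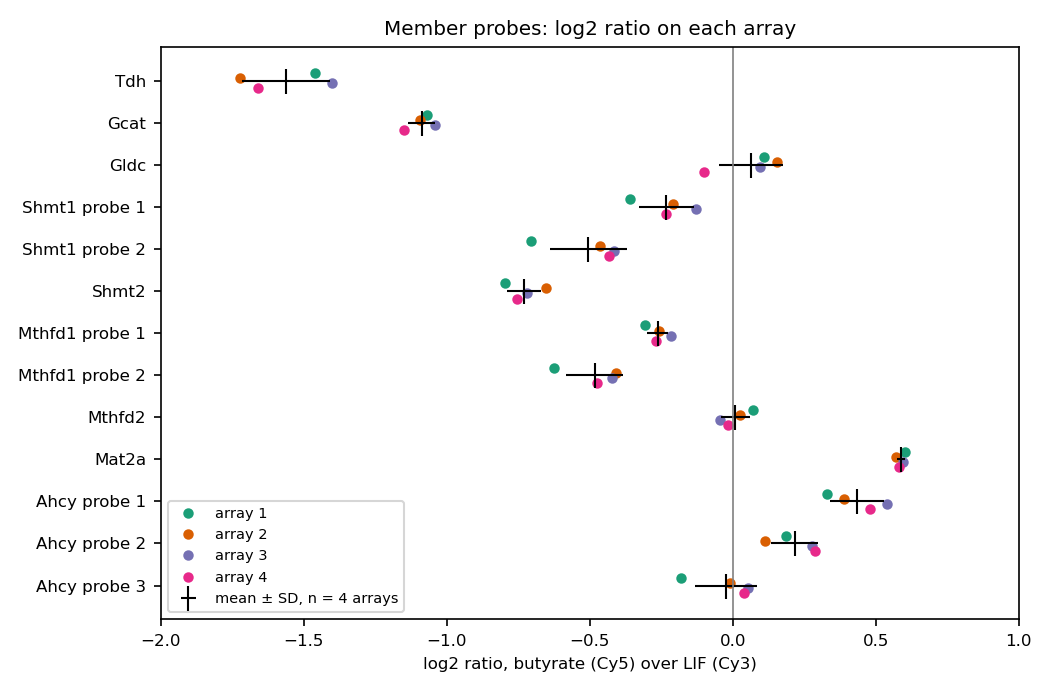
Log2 ratio of butyrate (Cy5) over LIF (Cy3) for each of the 13 member probes, with 1 point per array and a cross at the mean ± SD over 4 arrays. Tdh and Gcat lie farthest to the left, Mat2a and Ahcy probe 1 lie farthest to the right, and the points of Gldc, Mthfd2 and Ahcy probe 3 lie on both sides of 0.

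Tdh, which starts threonine breakdown, fell the most of the members. Its log2 signal in butyrate was 14.81, 14.65, 14.82 and 14.71 in replicates 1 to 4. In LIF it was 16.27, 16.37, 16.22 and 16.37. Every LIF sample was above every butyrate sample. The log2 ratio was −1.46, −1.72, −1.40 and −1.66 on arrays 1 to 4, with a mean of −1.56 ± 0.16 (SD, n = 4; limma, adjusted p = 1.4e-07). The scanner marked the Tdh spot as saturated in the LIF channel on all 4 arrays and in the butyrate channel on none. Its LIF signal is therefore a minimum, and in these values, scaled by loess, Tdh was at least 2.95-fold lower in butyrate. The bound holds for that scaling only, since centring without loess, described below, put Tdh at −1.12. At most 0.331% of tested probes had a lower mean ratio. The gene lies on chromosome 14.

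Gcat, the enzyme that acts next on the product of Tdh and releases glycine, fell as well. Its log2 signal was 12.19, 12.28, 12.32 and 12.26 in butyrate and 13.26, 13.38, 13.36 and 13.41 in LIF, with no overlap between the groups. The ratios of −1.07, −1.09, −1.04 and −1.15 spanned a narrow range. The mean was −1.09 ± 0.046 (SD, n = 4; limma, adjusted p = 9.3e-08), or 2.13-fold lower in butyrate, and 1.24% of tested probes had a lower mean ratio. No Gcat spot was saturated. Both steps of the route from threonine to glycine were thus lower in butyrate on all 4 arrays.

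Gldc, the decarboxylase of the mitochondrial glycine cleavage system, did not pass the test. Its log2 signal was 12.87, 12.90, 12.89 and 12.74 in butyrate and 12.76, 12.74, 12.80 and 12.84 in LIF, and the groups overlapped. The ratio was 0.11, 0.15 and 0.094 on arrays 1 to 3 and −0.10 on array 4. The mean of 0.064 ± 0.11 was smaller than the spread between arrays (SD, n = 4; limma, adjusted p = 0.261). In the loess values array 4 decided this outcome: without replicate 4 the mean was 0.12, with an adjusted p of 0.0364 by limma. The outcome depended on the scaling as well. The Gldc ratio was −0.016 in the scanner software's log ratio and did not pass. With centring and no loess, described below, it was 0.61 and passed as higher. Gldc lies on chromosome 19, whose genes had a median log2 ratio of 0.18, which is 0.16 above that of the other autosomes. The part of this shift in the Gldc ratio was not tested.

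Shmt1 and Shmt2, the cytosolic and mitochondrial serine hydroxymethyltransferases, interconvert serine and glycine while loading or unloading a 1-carbon unit. Shmt2 fell, from log2 signals of 11.90, 11.81, 11.85 and 11.83 in LIF to 11.10, 11.16, 11.13 and 11.07 in butyrate. The groups were separate, and the ratios of −0.80, −0.65, −0.72 and −0.75 gave a mean of −0.73 ± 0.06 (SD, n = 4; limma, adjusted p = 8.3e-07), or 1.66-fold lower. Shmt1 has 2 probes, and both were lower in butyrate on all 4 arrays. The brighter one, probe 1, gave ratios of −0.36, −0.21, −0.13 and −0.23, with a mean of −0.23 ± 0.096 (adjusted p = 0.0017). Probe 2 gave −0.71, −0.46, −0.42 and −0.43, with a mean of −0.50 ± 0.14 (adjusted p = 4.7e-05). Neither probe's butyrate signals overlapped its LIF signals, which for probe 1 were 12.02 to 12.14 and 12.27 to 12.38, and for probe 2 were 10.67 to 10.80 and 11.22 to 11.38. Array 1 gave the lowest ratio of both probes. The ratios of the Shmt1 probes thus agreed in direction and differed in size. Shmt1 lies on chromosome 11, whose genes had a median log2 ratio of 0.21, which is 0.19 above that of the other autosomes, while both its probes were below 0.

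The ratio of Shmt1 was higher than that of Shmt2 on each array. With Shmt1 probe 1 the difference of the log2 ratios, Shmt1 minus Shmt2, was 0.44, 0.44, 0.59 and 0.52, with a mean of 0.50 ± 0.072 (SD, n = 4). With Shmt1 probe 2 it was 0.092, 0.19, 0.30 and 0.32, with a mean of 0.23 ± 0.11. An exact two-sided sign-flip test over 4 arrays gives p = 0.125 for each, the smallest it can give. The size of the difference therefore rests on the choice of Shmt1 probe by more than 1.5 times, and its direction does not.

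Mthfd1 is the cytosolic enzyme with 3 activities that interconvert 1-carbon forms of tetrahydrofolate, and Mthfd2 is a mitochondrial dehydrogenase and cyclohydrolase that is high in many proliferating cells. Both probes of Mthfd1 fell. Probe 1, the brighter, had log2 signals of 13.41 to 13.53 in butyrate and 13.68 to 13.75 in LIF, and probe 2 had 11.82 to 12.07 and 12.34 to 12.54. The groups were separate for each. Probe 1 gave ratios of −0.31, −0.26, −0.22 and −0.27 and a mean of −0.26 ± 0.037 (SD, n = 4; limma, adjusted p = 2.2e-04). Probe 2 gave −0.63, −0.41, −0.42 and −0.47 and a mean of −0.48 ± 0.10 (adjusted p = 2.4e-05). As for Shmt1, the probes agreed in direction and the dimmer one had the larger decrease. Mthfd2 did not pass, with ratios of 0.071, 0.027, −0.044 and −0.015 and a mean of 0.0098 ± 0.05 (adjusted p = 0.824). Its log2 signal was 10.50, 10.51, 10.47 and 10.34 in butyrate and 10.43, 10.48, 10.52 and 10.36 in LIF, so the groups overlapped.

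Mthfd1 had a lower ratio than Mthfd2 on each array. Mthfd1 probe 1 minus Mthfd2 was −0.38, −0.29, −0.17 and −0.25, with a mean of −0.27 ± 0.085 (SD, n = 4). With Mthfd1 probe 2 the mean was −0.49 ± 0.14. The exact two-sided sign-flip p was 0.125 for each.

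**Figure D2:**
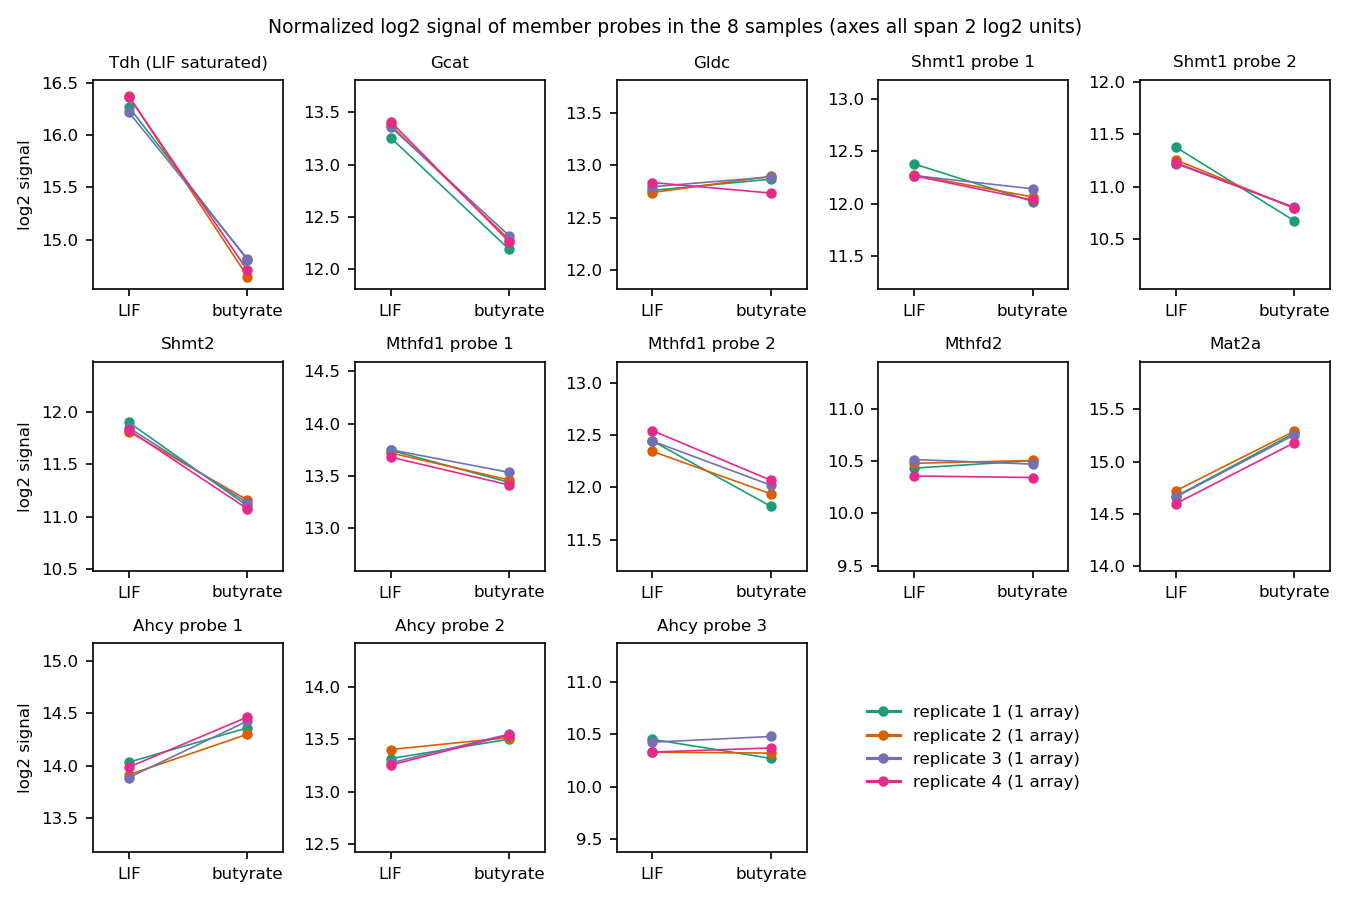
Normalised log2 signal of each member probe in the 4 butyrate samples and the 4 LIF samples, with 1 point per sample and a line joining the samples of an array. For Tdh, Gcat, Shmt1, Shmt2 and Mthfd1 the LIF points lie above the butyrate points, for Mat2a and Ahcy probes 1 and 2 they lie below, and signals are compared within a probe only.

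Mat2a, the catalytic subunit of the methionine adenosyltransferase that makes S-adenosylmethionine outside the liver, rose. Its log2 signal was 15.27, 15.29, 15.26 and 15.18 in butyrate and 14.67, 14.72, 14.66 and 14.60 in LIF. Every butyrate sample was above every LIF sample. The ratios of 0.60, 0.57, 0.59 and 0.58 had a mean of 0.59 ± 0.015 (SD, n = 4; limma, adjusted p = 1.4e-06), or 1.5-fold higher. This was the smallest spread of the 13 member probes. The spot was not saturated in either colour, and 11.2% of tested probes had a higher mean ratio.

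Ahcy, the hydrolase that clears S-adenosylhomocysteine after methyl transfer, has 3 probes that did not give the same result. Probe 1, the brightest, rose, with log2 signals of 14.36, 14.30, 14.42 and 14.46 in butyrate against 14.03, 13.91, 13.89 and 13.98 in LIF. Its ratios of 0.33, 0.39, 0.54 and 0.48 had a mean of 0.43 ± 0.094 (SD, n = 4; limma, adjusted p = 3.8e-05), or 1.35-fold higher. Probe 2 rose less, with ratios of 0.19, 0.11, 0.28 and 0.29 and a mean of 0.22 ± 0.082 (adjusted p = 0.0018). Its signals were also separate, at 13.50 to 13.55 in butyrate and 13.26 to 13.40 in LIF. Probe 3, the dimmest, did not pass. Its ratios were −0.18, −0.0088, 0.055 and 0.039, with a mean of −0.024 ± 0.11 (adjusted p = 0.665), and its groups overlapped. The array design gives the 3 probes different source transcripts, and which transcripts of Ahcy each one binds was not tested.

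The other genes of these pathways were taken from 9 lists of 44 genes in all, each gene by its brightest tested probe, and 42 were tested, with no probe named Mthfd2l. Of these 42, 26 (61.9%) were lower in butyrate, against 32.5% of all tested probes, 10 (23.8%) were higher, against 39.7%, and 6 did not pass. Their median log2 ratio was −0.23, against 0.03 over all tested probes. The lists, like the members, were chosen with earlier results of these data known, and the shares of all tested probes cover every brightness. These shares are therefore a description and not a test of the pathways. In the loess values, whose offset shrinks the ratios of dim probes, Psph, Mthfd1l and Cth were at least 2-fold lower and Mtap at least 2-fold higher. In the scanner software's log ratio, as in the authors' value table, 6 genes were at least 2-fold lower, with Tha1, Aldh1l1 and Aldh1l2 added, and 4 at least 2-fold higher, with Mat1a, Bhmt and Bhmt2 added. With centring and no loess, none was 2-fold lower and 2, Slc46a1 and Mtap, were 2-fold higher. Since 18 of the 42 genes had several tested probes, the choice of probe matters: 3 genes, Mat2b among them, had probes that passed in opposite directions. Values that follow are mean log2 ratios ± SD over 4 arrays.

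In the list of threonine and serine breakdown, 1 of 2 tested genes was lower, Tha1, the threonine aldolase that cleaves threonine to glycine by a route other than Tdh, at −0.30 ± 0.12. Its probe was dim, and in the scanner software's log ratio, which adds no offset to the signals, it was at −1.51. Sdsl did not pass, and Sds was below the limit on brightness. All 3 genes of glycine cleavage and transport were lower. Slc6a9, a glycine transporter of the plasma membrane, had the largest change at −0.71 ± 0.07. Dld, the dihydrolipoamide dehydrogenase that the glycine cleavage system shares with other complexes, was at −0.24 ± 0.12 by its brightest probe, while its other probes, at −0.094 and 0.0095, did not pass. Gcsh, the lipoate carrier of the cleavage system, was at −0.23 ± 0.064.

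All 3 enzymes of serine synthesis from glycolysis were lower. Psph, the phosphatase of the last step, was at −1.04 ± 0.049, or 2.06-fold lower, with ratios of −0.98, −1.03, −1.10 and −1.06 on arrays 1 to 4. Its other probe gave −0.97. Phgdh, the dehydrogenase of the first step, was at −0.49 ± 0.071, with −0.52 and −0.49 on its other probes. Psat1, the aminotransferase between them, was at −0.42 ± 0.048.

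Of 4 tested mitochondrial folate enzymes and carriers, 3 were lower. Mthfd1l, which releases formate for the cytosol, was at −1.02 ± 0.073, or 2.02-fold lower, with ratios of −1.03, −0.93, −0.998 and −1.11. Slc25a32, the mitochondrial folate carrier, was at −0.18 ± 0.053 (−0.32 in the scanner software's log ratio). Aldh1l2, a mitochondrial relative of Aldh1l1, was close to it at −0.17 ± 0.081 with the offset and far lower, at −1.10, in the scanner software's log ratio. Of 8 cytosolic folate enzymes, 4 were lower, 1 was higher and 3 did not pass. Among the lower ones was Aldh1l1, which oxidises the 1-carbon unit of formyl-tetrahydrofolate to carbon dioxide, at −0.79 ± 0.16 (−1.13 in the scanner software's log ratio). Tyms, the thymidylate synthase, was at −0.43 ± 0.017.

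Of 6 genes of folate uptake and retention, 3 were higher and 2 lower. Slc46a1, the proton-coupled folate transporter, was at 0.51 ± 0.085, and Fpgs, which adds the glutamate tail that keeps folate in the cell, was at −0.51 ± 0.056. Slc46a1 lies on chromosome 11, whose genes had a median log2 ratio 0.19 above that of the other autosomes. The part of this shift in the Slc46a1 ratio was not tested. The methionine cycle had 5 of 9 genes higher and 4 lower. In the loess values, those with the largest change were Bhmt and Bhmt2, which methylate homocysteine without folate, at 0.67 ± 0.18 and 0.60 ± 0.16, and at 1.40 and 1.31 in the scanner software's log ratio. Mat1a, the adenosyltransferase subunit of the liver, was not well above background in LIF and was at 0.15 ± 0.098 with the offset, but at 1.59 in the scanner software's log ratio, above both. With centring and no loess Mat1a was at 0.026 and did not pass, which is −0.34 relative to the median of all tested probes. Its direction therefore rests on the scaling. Mtr, the folate-dependent methionine synthase, was at −0.56 ± 0.11, and its reductase Mtrr at −0.38 ± 0.074 (−0.69 in the scanner software's log ratio). Mat2b, the regulatory partner of Mat2a, was at −0.24 ± 0.059 by its brightest probe, with another probe in the opposite direction. Ahcyl1 and Ahcyl2, relatives of Ahcy, were at 0.28 ± 0.06 and 0.39 ± 0.082.

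Both transsulfuration enzymes, which lead homocysteine to cysteine, were lower. Cth, the cystathionine gamma-lyase, was at −1.17 ± 0.10, or 2.26-fold lower, with ratios of −1.26, −1.13, −1.26 and −1.05, and Cbs, the cystathionine beta-synthase, was at −0.51 ± 0.12 (−0.77 in the scanner software's log ratio). In the polyamine branch and methionine salvage, 4 of 5 genes were lower and 1 was higher. Among the lower ones, the probe of Odc1 was saturated in butyrate on all 4 arrays and in LIF on 1. Its decrease may therefore be overstated, and its other tested probes did not pass. Mtap, which returns methylthioadenosine from polyamine synthesis to methionine salvage, was at 1.14 ± 0.063, or 2.20-fold higher, with ratios of 1.07, 1.18, 1.20 and 1.098. Sms, the spermine synthase, was at −0.70 ± 0.043, with −0.93 on another probe and 0.062 on the remaining one, which did not pass.

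**Figure D3:**
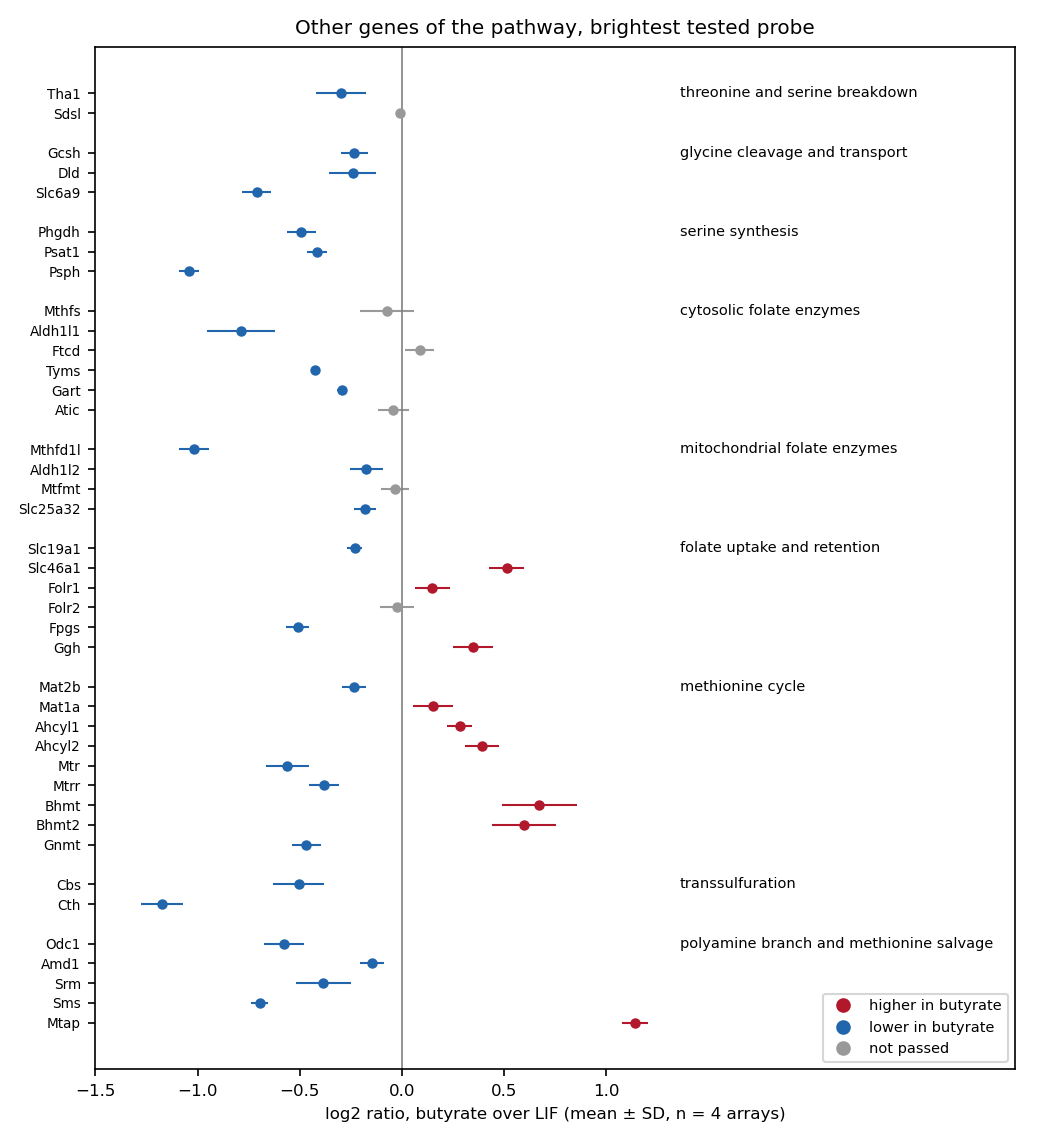
Mean log2 ratio of butyrate over LIF ± SD over 4 arrays for 40 of the 42 tested genes of the other pathway lists, grouped by list. Cth, Psph and Mthfd1l lie at or below −1, Mtap lies above 1, and the methionine cycle has genes on both sides of 0.

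How the 2 colours of an array were brought to one scale set the sign of the smaller ratios. In the values above, loess removed the typical difference between the colours at each brightness, whether it came from the dyes or from the treatments. When loess was left out, the arrays were only centred, each on the median of its own spots, those of untested probes included. The median log2 ratio of all tested probes then rose from 0.03 to 0.37, and 92.0% of the called probes were higher in butyrate, against 55.0% with loess. How much of this came from leaving out loess and how much from the choice of spots was not tested. Under that centring 6 member probes passed as higher and 2, of Tdh and Gcat, as lower. Tdh was then at −1.12 (adjusted p = 4.0e-04) and Gcat at −0.54 (adjusted p = 0.0145), and Shmt2, at −0.15 (adjusted p = 0.432), no longer passed. The probes of Shmt1 (0.34 and 0.087) and Mthfd1 (0.25 and 0.085) changed sign and did not pass. Mat2a was at 1.05, and Gldc (0.61) and Mthfd2 (0.61) passed as higher. Of the 26 pathway genes called lower with loess, 4 stayed lower, Tha1, Psph, Mthfd1l and Cth. Another 4 passed as higher, Gcsh, Slc25a32, Slc19a1 and Amd1, and 18 did not pass, so the count of lower genes in these lists rests on the scaling. Relative to the median of all tested probes, itself at 0.37 under that centring, these 4 were at −0.0044, 0.044, −0.0083 and 0.016. They thus lay close to the typical probe and did not stand out as increases. In the authors' value table, and with the log ratio that the scanner software gives, the 10 called member probes kept their direction and their calls.

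**Figure D4:**
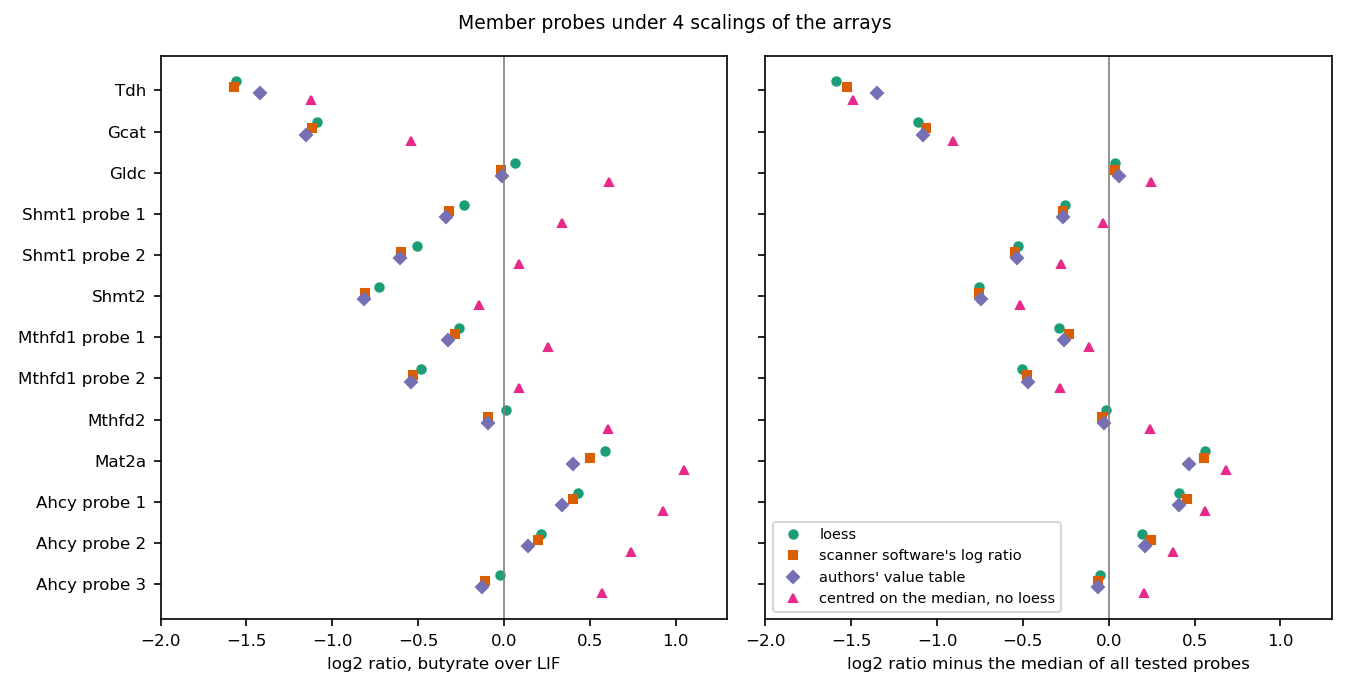
Mean log2 ratio of each member probe under loess, the scanner software's log ratio, the authors' value table and centring without loess, on the left as given and on the right minus the median of all tested probes. On the left, centring without loess lies to the right of the other scalings for every probe, and on the right the 10 called probes stay on one side of 0 under all 4.

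Relative to the median of all tested probes, the 10 called member probes stayed on one side under all settings that gave them a value. Tdh ranged from −1.64 to −1.35, Gcat from −1.13 to −0.91, Shmt2 from −0.78 to −0.52 and Mat2a from 0.47 to 0.68. The brighter Shmt1 probe came closest to that median, from −0.29 to −0.033.

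Markers of the stem cells and of other cell types were also compared between the groups. Of 8 embryonic stem cell markers, all well above background in both groups, Dppa5a was saturated in both colours on the 4 arrays, so its ratio cannot be read. Of the other 7, 6 were lower in butyrate and 1, Nanog, was higher at 0.23 ± 0.054, with a median log2 ratio of −1.24. Their summed level, as log2, was 16.27 to 16.37 in LIF and 15.64 to 15.81 in butyrate, and with Dppa5a it was 17.26 to 17.36 and 16.65 to 16.78. All 8 trophoblast markers were higher, at a summed level of 14.81 to 14.90 against 12.71 to 12.87, with Elf5 not well above background in LIF. The increase of Tfap2c was small, at 0.15 ± 0.11 with −0.010 on array 4, and its groups overlapped. Of 6 primitive endoderm markers, 5 were higher, at 12.10 to 12.19 against 10.35 to 10.54. Of 7 tested fibroblast markers, 5 were higher and 2 lower, at 13.25 to 13.31 against 10.77 to 10.98, with Dcn not well above background in LIF. Of all tested probes 39.7% were higher and 32.5% lower. In butyrate each sum weighed most on its brightest probe. This was Zfp42 for the unsaturated stem cell markers, Krt19 for trophoblast, Col4a1 for primitive endoderm and Col1a1 for fibroblasts. The part of these cell types in the ratios of the members was not tested.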

How the data were processed

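RNA of 4 butyrate and 4 LIF samples was hybridised in pairs to 4 Agilent arrays. Each scan was deposited under both of its samples, so the 8 scanner files hold 4 scans. Agilent Feature Extraction 9.1 read them, per the submitters' processing notes. An intensity for every spot in each colour is in the deposited files, with, per the file headers, a background-subtracted, dye-normalized log10 ratio of Cy5 over Cy3. The authors' deposited table holds log2 values, by a normalization not given in the sources used here. Its columns share a median of 6.487, correlate with the log2 processed signal of their own channel, and run in the channels' direction.

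With limma 3.58.1 in R 4.3.3, the background was corrected (normexp, offset 50), which understates the fold of dim genes, and each array was normalized by loess with controls at weight 0. Of 43379 non-control spots per array, 14 outlier spots over all arrays were set to missing, saturated spots were kept, and spots of a probe were averaged. Tested were the 25661 probes that the scanner marked well above background in 1 colour or the other on 3 or more arrays, with a ratio on more than 1. The test was lmFit and eBayes on 4 log2 ratios against 0, adjusted by Benjamini-Hochberg over all tested probes, with calls at 0.05. Log2 signals of each colour came after loess and Aquantile. A probe saturated in 1 group on all arrays gives a bound from its values as read, within the loess scaling. The number of arrays limits the precision.

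Because the ratio is formed within an array, the replicate number is blocked, and it is the shared array that pairs the samples. Deviations from the group means correlated across probes at 0.25, 0.15, 0.30 and 0.21 for the same number and at −0.22 to 0.09 for other numbers, which does not show whether cultures were paired.

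The members and lists were chosen with earlier results of these data known. Named are all member probes and, in each list, up to 2 genes with the largest change that passed with 1 sign on 4 arrays. Named after their values were seen were Sdsl, Gcsh, Psat1, Tyms, Aldh1l2, Slc19a1, Mtr, Mtrr, Mat1a, Mat2b, Ahcyl1, Ahcyl2, Odc1 and Amd1. Some genes of the lists, 1 of them picked by this rule, are not reported here by name, and no others take their place. On simulated data of 25661 probes for this comparison, all 50 raised and all 50 lowered probes of 2-fold were recovered. Of 50 each at 1.5-fold, 48 raised and 45 lowered were recovered. Calls were made for 4 of 25461 unchanged probes. In the data 72.2% of tested probes were called, a far larger share than was changed in the simulation. The 4 calls therefore do not measure false calls in the data. Alternatives were other background corrections, scalings, filters, variance models and pairings, saturated spots as missing, other ways to combine probes, each replicate left out and the authors' table. Plots used matplotlib 3.10.9 (Python 3.11.15).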

Additional observations from a re-analysis of the deposited data

Results flagged for a closer look

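In 4 of 58 groups of 4 values examined, 1 value stood apart from the others by Dixon's test, and chance alone sets such a mark in about 5% of groups. The log2 signal of Gldc in butyrate was 12.74 in replicate 4, against 12.87 to 12.90 in the others. The log2 signal of Shmt1 probe 1 in LIF was 12.38 in replicate 1, against 12.27 in the others. Probe 2 of Shmt1 had a log2 ratio of −0.71 on array 1, against −0.46 to −0.42 on the others, and its log2 signal in butyrate was 10.67 in replicate 1, against 10.79 to 10.80.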

How the results depend on the processing

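Centring on the median without loess was the setting that moved counts by over 1.5 times: 1242 of all tested probes were called lower (8343 with loess), 6 member probes higher and 2 lower, and 17 pathway genes higher and 4 lower. Signs turned under it for Shmt1 (0.34 and 0.087), Mthfd1 (0.25 and 0.085) and Ahcy probe 3 (0.57). Among probes that had not passed, Mthfd2 was at −0.0087 with no background correction, −0.091 with the scanner's log ratio, −0.094 in the authors' table and −0.011 without replicate 1, Gldc at −0.016 and −0.012 with the scanner's ratio and the authors' table, and Ahcy probe 3 at 0.028 without replicate 1 (−0.050 to 0.028 over single replicates left out). Tdh (−1.62 to −1.12), Gcat (−1.15 to −0.54), Mat2a (0.40 to 1.05) and Ahcy probes 1 and 2 kept their calls wherever they were fitted. Tdh could not be fitted with saturated spots missing. The share of called probes that were higher was 46.3% with the scanner's ratio and 44.9% in the authors' table. With no replicate block, 9987 probes were called higher and 8050 lower, and the member (3 and 7) and pathway (10 and 26) counts were as with the block. Leaving out each replicate gave 3 to 4 member probes higher and 7 lower, and 8 to 11 pathway genes higher and 25 to 27 lower. Leaving out chromosomes 8, 11 and 19, chosen after seeing the data, left 3 higher and 5 lower of 10 member probes. The probes taken out were those of Gldc, which had not passed, and of Shmt1, both lower. The smaller count of lower probes is therefore only their removal.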
